A study of Mus musculus with 6 samples.

Results

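Cytosolic ribosomal protein genes were examined in microglia of wild-type mice and of mice labelled IRF8KO. Members were the protein-coding genes whose mouse symbol begins with Rpl or Rps followed by a digit, together with Rplp0, Rplp1, Rplp2 and Rpsa, leaving out the Rps6k kinases. The rule took 92 of the 49585 genes in the files. Of these, 77 carry the plain name of a ribosomal protein and are called core here, 46 for the large and 31 for the small subunit. The other 15 are 7 paralogs, 2 genes that are only named alike and 6 genes that are named as pseudogenes but annotated as protein-coding. The study has 6 bulk RNA-seq libraries of male mice aged 3 months, 3 of genotype WT and 3 of genotype IRF8KO. Microglia, which are macrophages that live in the brain, were isolated from single brains without enzymes and sorted by flow cytometry into a lysis reagent, and polyA RNA was amplified as full-length cDNA before library preparation. No treatment was given. The labels do not give the strain, the Irf8 allele, the cells in which it was deleted or the sorting markers.

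A cytosolic ribosome is built from ribosomal RNA and one copy of nearly every ribosomal protein, so the genes of the class are expressed together in most cells. The large subunit joins amino acids, the small subunit reads the messenger RNA, and the stalk proteins Rplp0, Rplp1 and Rplp2 recruit the elongation factors. Most mRNAs of the class start with a run of pyrimidines called the 5′ TOP motif, through which mTOR signalling and the RNA-binding protein Larp1 control their translation and stability. IRF8 is a transcription factor of microglia and other myeloid cells.

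The targeted gene, Irf8, was at 795, 851 and 1403 CPM in WT replicates 1 to 3 and at 743, 649.99 and 849.6 CPM in IRF8KO replicates 1 to 3. CPM here are counts per 1000000 after TMM scaling, which sets the bulk of the genes level between libraries. Irf8 was not called (log2 fold change -0.44, edgeR adjusted p = 0.368), except lower with library size alone (-0.90, edgeR adjusted p = 0.00763) and when scaled to the mitochondrial ribosomal protein genes (-1.08, edgeR adjusted p = 0.00496), so its counts did not check the genotype, and every direction below rests on the labels. Gene counts per library ran from 3658917 to 11098363. Apoe, the main brain apolipoprotein, took 0.154 to 0.324% of the counts in WT and 25.5 to 33.7% in IRF8KO. Of 10 microglial markers, 1 was called higher and 3 lower, and their summed level was 54280.1 to 101457 CPM in WT and 42933 to 61558 CPM in IRF8KO, with Sall1 at 0 counts in IRF8KO. Among 8 markers of border-associated macrophages, 7 were tested and all 7 were called higher. Their summed level was 609 to 834 CPM in WT and 3707 to 4911 CPM in IRF8KO, with Lyve1 at 0 counts in all 6 libraries and Cd163 and F13a1 at 0 counts in WT. Cd163 and F13a1 were tested only because of their IRF8KO counts, so their calls carry no weight. Summed neuronal markers stood at 0.283 to 3.72 against 14.1 to 21.5 CPM, with 2 of 2 tested called higher. The neuronal genes had enough counts to be tested only with IRF8KO included, so their calls carry no weight either. Astrocyte markers stood at 2.83 to 11.6 against 22.3 to 44.3 CPM, with 3 of 3 tested called higher, and oligodendrocyte markers at 44.9 to 277 against 369.9 to 546 CPM, with 0 of 2 called. Neutrophil markers stood at 0 to 0.142 against 0.108 to 181 CPM and red blood cell markers at 47.4 to 393 CPM in IRF8KO against 0 to 50.6 CPM in WT, both with overlap. Endothelial markers were lower, at 18.3 to 21.03 CPM in WT and 1.77 to 9.87 CPM in IRF8KO, with 1 called lower of 1 tested. The part of these marker differences in the results below was not tested.

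The ribosomal protein genes took a larger share of the libraries labelled IRF8KO. Together the members held 0.337, 0.361 and 0.382% of the gene counts in WT replicates 1 to 3, with 95% Clopper-Pearson intervals of 0.331 to 0.343, 0.358 to 0.365 and 0.378 to 0.386%. In IRF8KO replicates 1 to 3 they held 0.783, 0.980 and 1.35%, with intervals of 0.777 to 0.789, 0.974 to 0.986 and 1.35 to 1.36%. The intervals cover counting error only, since the reads carry no molecular identifiers. All 3 IRF8KO libraries were above all 3 WT libraries. The mean share was 0.360% ± 0.0224 (SD, n = 3) in WT and 1.04% ± 0.290 (SD, n = 3) in IRF8KO, a ratio of 2.88.

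Because Apoe alone filled at least 25.5% of each IRF8KO library, the share was also taken of the total without it. It was then 0.338, 0.362 and 0.383% in WT, with intervals of 0.332 to 0.344, 0.358 to 0.366 and 0.379 to 0.388%, and 1.18, 1.31 and 1.88% in IRF8KO, with intervals of 1.17 to 1.19, 1.31 to 1.32 and 1.87 to 1.89%. The means were 0.361% ± 0.0227 (SD, n = 3) and 1.46% ± 0.371 (SD, n = 3), a ratio of 4.04. Removing Apoe hardly changed the WT values and raised the IRF8KO values, and IRF8KO replicate 3 stayed the highest either way. In bulk samples such a difference can come from more RNA of these genes per cell or from more cells that hold it, and the 2 cannot be told apart. Reads that map to more than 1 place are not counted for any gene, and they made up 4.33 to 5.85% of all reads in each library, more than the whole class was assigned.

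**Figure D1:**
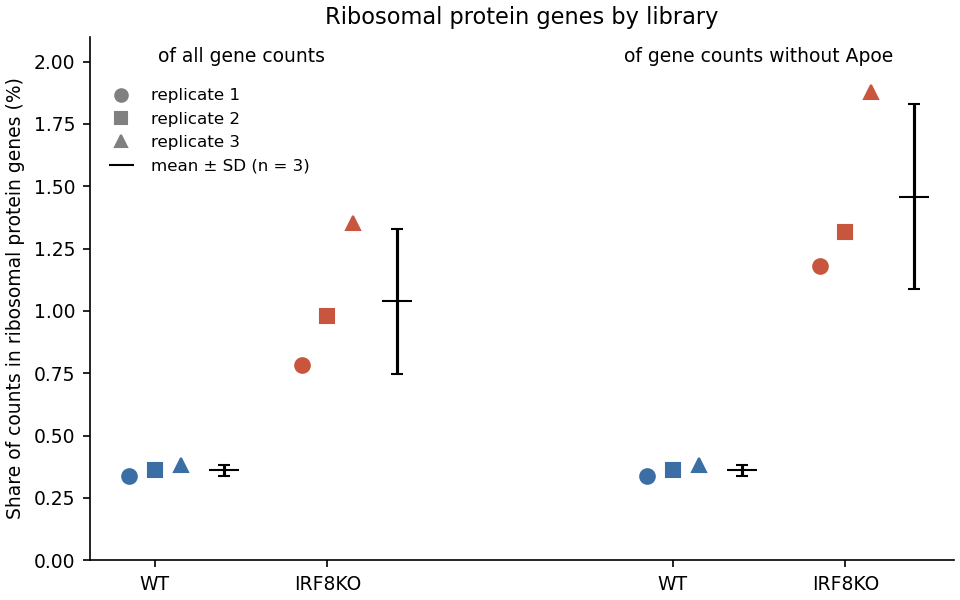
Share of gene counts in the 92 ribosomal protein genes (y axis, %) in each WT and IRF8KO library, of all gene counts on the left and of the counts without Apoe on the right. Symbols are replicates and the bar is the mean ± SD of 3 libraries. The IRF8KO libraries lie at 0.783 to 1.35% against 0.337 to 0.382% in WT, and at 1.18 to 1.88% against 0.338 to 0.383% without Apoe.

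Gene by gene, nearly the whole class was higher in IRF8KO. Of the 92 members, 82 had enough counts to be tested, and 75 of these 82 were called higher and 0 lower by edgeR's quasi-likelihood test at an adjusted p under 0.05. Of the 75, Rpl9-ps6 was tested only because of its IRF8KO counts, and of the 78 members that passed the filter on low counts in all WT libraries 74 were called higher. Over all 11041 genes tested, 9.64% were called higher and 9.46% lower. At an unadjusted p under 0.05, 79 members were higher and 0 lower, beside 3717 of all 11041 genes in either direction. DESeq2 called 76 members higher and 0 lower. Of the 75 tested core genes, 72 were called higher, which were 41 of 44 of the large subunit and 31 of 31 of the small subunit. All 75 had every IRF8KO library above every WT library, against 20.0% of all genes tested.

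Of the 75 tested core genes, 74 also passed the filter on low counts in all 3 WT libraries, and Rpl13a did not. Of those 74, 72 were called higher, against 8.43% of all genes that passed in WT. The core median log2 fold change was 2.17, or 4.49-fold, with quartiles of 1.78 and 2.45, beside a median of -0.11 over all genes. No core value was below 0. The lowest was 0.73 and the highest 3.23, and 73 of 75 were at least 2-fold and 48 at least 4-fold. Their standard deviation was 0.47, beside 1.62 over all genes and a median standard error of 0.34 for a single core gene. The large-subunit median was 2.05 and the small-subunit median 2.26.

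The count of all genes called higher depended on single libraries more than the count of members did. Leaving out WT replicate 3 raised it to 18.1% of genes, and leaving out any one of WT replicates 1 and 2 and IRF8KO replicates 1 and 3 lowered it to 5.76, 5.54, 5.27 and 4.58%. The members called higher numbered 65 to 78 over the same fits, lowest without IRF8KO replicate 3. Of the 72 core calls, 63 held in all 6 fits, and the 9 that did not, all lost without IRF8KO replicate 3, were Rplp0, Rpl28, Rpl4, Rps15, Rps26, Rpl27, Rps7, Rpl30 and Rpl39. With no scaling beyond library size, 69 members were called higher and 1, Rpl7l1, lower, while all genes split into 5.90% higher and 17.3% lower. That scaling moved the median of all genes to -0.61 and the core median to 1.69. Scaling to the mitochondrial ribosomal protein genes, which themselves moved, gave 70 members higher and a core median of 1.50, with all genes at a median of -0.77.

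**Figure D2:**
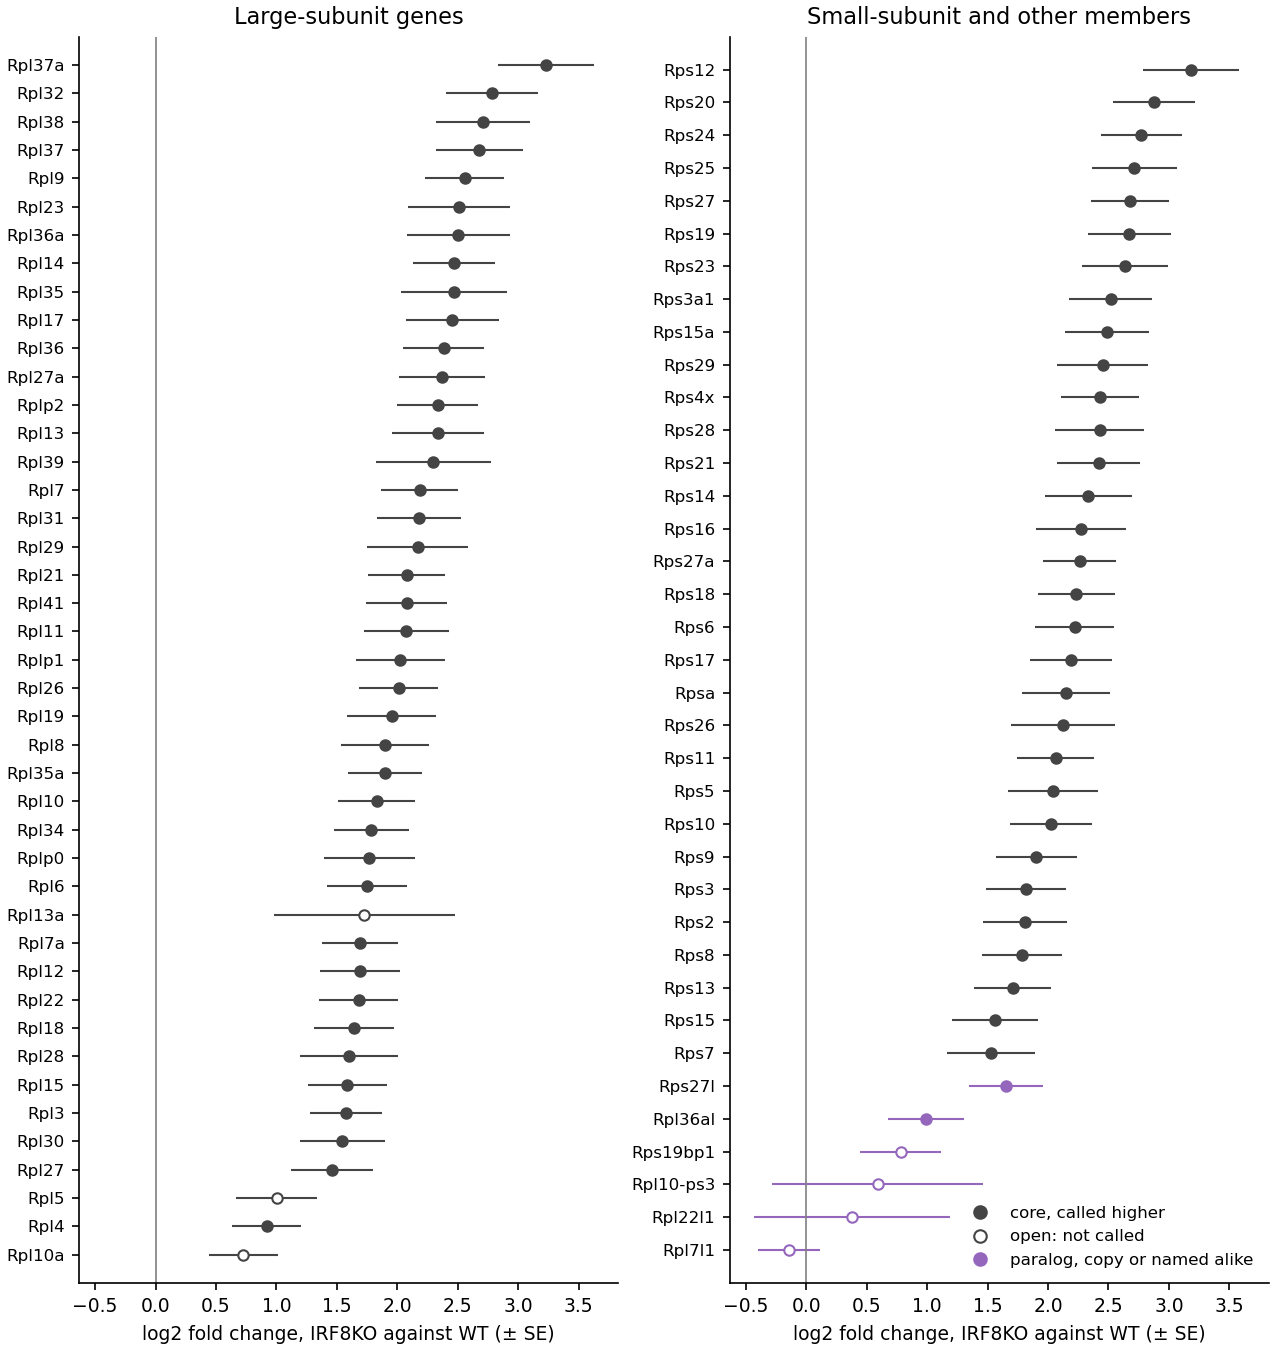
Log2 fold change of IRF8KO against WT (x axis) for 80 of the 82 tested members, with error bars of 1 standard error from edgeR. Filled points were called higher at an adjusted p under 0.05, open points were not called, and purple points are paralogs, copies and genes only named alike. Rpl9-ps6 is among those left out, because its WT counts are too low for a fitted fold change. The core genes run from 0.73 for Rpl10a to 3.23 for Rpl37a.

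Per kilobase of exon, the tested core genes had a median of 12.2 CPM in WT and 56.7 CPM in IRF8KO, beside 3.09 and 2.65 CPM over all tested genes. Rplp1, Rplp0, Rpl36 and Rps15 were among the 5 members with the highest levels per kilobase.

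Of the stalk genes, Rplp0, the anchor of the stalk, was at 151, 177 and 357 CPM in WT and at 735, 627 and 965 CPM in IRF8KO (log2 fold change 1.77 ± 0.38 SE, edgeR adjusted p = 0.00719). Rplp1 was at 45.5, 65.9 and 104.6 CPM against 254, 227 and 398 CPM (2.02 ± 0.37, edgeR adjusted p = 0.00288). Rplp2 was at 29.5 ± 8.44 CPM against 149 ± 49.3 CPM (SD, n = 3 each; 2.33 ± 0.34, edgeR adjusted p = 0.00069). In all 3 genes, WT replicate 3 was the highest WT library and IRF8KO replicate 3 the highest IRF8KO library, and the groups did not overlap. The Rplp0 call was lost without IRF8KO replicate 3 (edgeR adjusted p = 0.0604), and that of Rplp1 after a correction for GC content and exon length (log2 fold change 0.61, edgeR adjusted p = 0.0842).

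Rpl36 and Rps15, both highly expressed, also had smaller log2 fold changes with that correction. Rpl36, of the large subunit, was at 17.5, 20.2 and 30.3 CPM in WT and 108, 90.5 and 157 CPM in IRF8KO (log2 fold change 2.38 ± 0.33 SE, edgeR adjusted p = 0.00055). Rps15, of the small subunit, was at 35.0, 47.5 and 84.6 CPM against 149.9, 134 and 210.4 CPM (1.56 ± 0.36, edgeR adjusted p = 0.0103). With the correction Rpl36 was at 0.98 and still called (edgeR adjusted p = 0.0102), as under each other alternative run, whereas the call of Rps15 was lost with the correction (0.36, edgeR adjusted p = 0.277) and without IRF8KO replicate 3 (edgeR adjusted p = 0.0771).

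The largest rises among the core genes were those of Rpl37a, Rps12, Rps20 and Rpl32. Rpl37a (ENSMUSG00000046330.10, chromosome 1, 72711290 to 72713813), a small zinc-binding protein of the large subunit, was at 9.53, 15.2 and 20.4 CPM in WT and 112, 102 and 211 CPM in IRF8KO. Its log2 fold change was 3.23 ± 0.39 (SE; edgeR adjusted p = 0.000221), or 9.37-fold. Rps12 (ENSMUSG00000061983.6, chromosome 10, 23785183 to 23787275) was at 4.09, 8.14 and 7.31 CPM against 53.0, 41.5 and 85.9 CPM, with 3.18 ± 0.40 (edgeR adjusted p = 0.000252). In both genes the IRF8KO libraries stood well apart from WT, and IRF8KO replicate 3 was the highest.

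Rps20 (ENSMUSG00000028234.6, chromosome 4, 3831334 to 3835665) had the smallest p of the class. It was at 15.8, 14.3 and 22.9 CPM in WT and 119, 94.9 and 174 CPM in IRF8KO (log2 fold change 2.87 ± 0.34 SE, edgeR adjusted p = 0.000184). Rpl32 was at 28.2, 26.8 and 53.6 CPM against 198, 195 and 356 CPM (2.78 ± 0.38, edgeR adjusted p = 0.000483). Neither gene had overlapping groups, and Rpl32 shares 20.0% of its exon bases with other annotated genes, Cand2 and Snora7a.

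Rps27, Rps24 and Rpl9 completed the 6 smallest p-values. Rps27, a zinc-finger protein of the small subunit, was at 23.3, 26.4 and 33.8 CPM in WT and 154, 139.7 and 242 CPM in IRF8KO (log2 fold change 2.68 ± 0.32 SE, edgeR adjusted p = 0.000205). Rps24 was at 10.3, 9.06 and 8.13 CPM against 52.6, 48.5 and 86.4 CPM (2.77 ± 0.33, edgeR adjusted p = 0.000208). Rps24 is a gene in which WT replicate 3 was the lowest WT library, unlike Rps27 and Rpl9. Rpl9 was at 15.6, 19.8 and 24.0 CPM against 103, 87.1 and 159 CPM (2.55 ± 0.33, edgeR adjusted p = 0.000316).

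The smallest differences among the core genes were in Rpl10a, Rpl4, Rpl5 and Rpl27, all of the large subunit. Rpl10a (ENSMUSG00000037805.14, chromosome 17, 28328471 to 28331033), part of the stalk at which tRNAs leave the ribosome, was at 55.6, 53.5 and 84.9 CPM in WT and 121, 93.4 and 107 CPM in IRF8KO. Its log2 fold change of 0.73 ± 0.29 (SE) was not called (edgeR adjusted p = 0.0966), although the lowest IRF8KO library was above the highest WT library. It was called without WT replicate 3 (1.00, edgeR adjusted p = 0.00389) and with library sizes taken without Apoe (0.74, edgeR adjusted p = 0.0145).

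Rpl4 (ENSMUSG00000032399.8, chromosome 9, 64173375 to 64178666), which lines the exit tunnel for the new protein, was at 83.1, 89.4 and 76.8 CPM in WT and 139.96, 123 and 207 CPM in IRF8KO. The log2 fold change was 0.92 ± 0.29 (SE; edgeR adjusted p = 0.0436), and the call was lost in 10 of 22 alternatives, among them the fits without any one of WT replicates 1 and 2 and IRF8KO replicates 1 and 3 (edgeR adjusted p = 0.123, 0.121, 0.0907 and 0.213). Rpl5, which carries the 5S ribosomal RNA with Rpl11, was at 12.8, 13.3 and 12.3 CPM against 24.9, 21.3 and 30.8 CPM and was not called (1.00 ± 0.33, edgeR adjusted p = 0.055). It was called in 6 of 22 alternatives, among them the fit without WT replicate 3 (edgeR adjusted p = 0.0322), the correction for GC content and exon length (1.71, edgeR adjusted p = 0.0161) and DESeq2 (adjusted p = 0.0243). Rpl27 was at 14.8, 16.7 and 30.2 CPM against 54.3, 48.5 and 67.0 CPM (1.46 ± 0.34, edgeR adjusted p = 0.0109). Its call was lost without WT replicate 2 or without IRF8KO replicate 3 (edgeR adjusted p = 0.0573 and 0.0749).

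The third core gene that was tested and not called was Rpl13a, at 0.389, 1.35 and 1.38 CPM in WT and 2.89, 3.14 and 4.66 CPM in IRF8KO (log2 fold change 1.73 ± 0.75 SE, edgeR adjusted p = 0.129). It and the untested Rpl23a and Rpl24 are encoded at loci where 35.4, 62.3 and 47.0% of the exon bases are shared with other annotated genes, and reads on shared bases are counted for neither gene. Rpl23a reached 69 counts over all 6 libraries, and Rpl24 fewer. How far this lowered their values was not tested. Over the 45 tested members without exonic overlap, 42 were called higher, and the core median was 2.29.

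**Figure D3:**
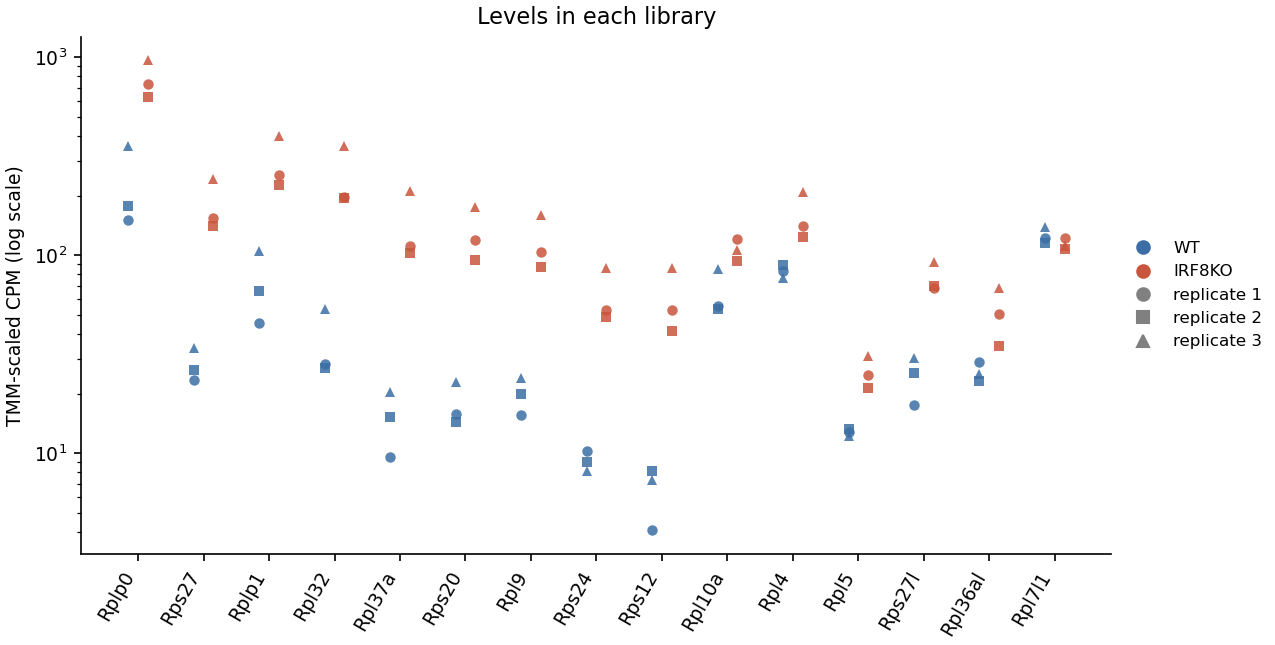
TMM-scaled CPM (y axis, log scale) of 15 members in each WT and IRF8KO library, with 1 symbol per replicate. The IRF8KO values lie above all WT values in 14 genes, and for Rpl7l1 the groups overlap.

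A second fit asked which members moved against the class itself, with the summed core counts of a library as its size. On this scale, 194 of 11041 genes (1.76%) were called higher and 8228 (74.5%) lower. Of the core genes, 67 of 75 were not called and 58 lay within 0.5 log2 units of no difference, with a range of -1.28 to 1.16. The scaling itself sets the centre of the core genes, and a gene that was not called can still differ. The members called higher were 6: Rpl37a, Rps12, Rps20, Rpl32, Rps19 and Rpl9-ps6, the last of which passed the filter on low counts only through IRF8KO. Those called lower were also 6: Rpl10a, Rpl4, Rpl5, Rpl36al, Rps19bp1 and Rpl7l1.

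Few of these calls held when any one library was left out. Rpl37a stayed above the class in all 6 such fits (log2 difference 1.16 ± 0.32 SE, edgeR adjusted p = 0.00904 with all libraries and at most 0.0343 in those fits). Rpl10a (-1.28 ± 0.29, edgeR adjusted p = 0.00385), Rpl4 (-1.23 ± 0.30, edgeR adjusted p = 0.00564) and Rpl7l1 (-2.19 ± 0.31, edgeR adjusted p = 0.000499) stayed below it in all 6. The other 8 lost the call at least once. Members called higher numbered 1 without WT replicate 1, 2 without WT replicate 2, 3 without WT replicate 3, 2 without IRF8KO replicate 1, 1 without IRF8KO replicate 2 and 2 without IRF8KO replicate 3. Members called lower numbered 3 without WT replicate 1 or IRF8KO replicate 2 and 7 without WT replicate 3.

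The balance between subunits shifted slightly. Summed large-subunit counts over summed small-subunit counts were 1.41, 1.49 and 1.47 in WT and 1.30, 1.29 and 1.29 in IRF8KO. The groups did not overlap, and the means were 1.46 ± 0.0410 and 1.29 ± 0.00594 (SD, n = 3 each).

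The promoters of the class were read from RefSeq windows on GRCm38.p6, because the members moved together. Of the 77 core genes, 57 had an entry, with 67 windows of 300 bases, 250 before and 50 after the start. The stretches shown run from 60 bases before to 30 after the start, with capitals for CTTTC, the letters of a typical TOP start, on the gene's strand, and for CGGAAG, the core of an ETS-family site, on either strand. Rpl37a, Rps12 and Rps27 are shown as genes with large rises, and Rpl4 and Rpl5 as genes with small differences. They lie at chr1:72711200-72711289 (+), chr10:23787180-23787269 (-), chr3:90213619-90213708 (-), chr9:64173327-64173416 (+) and chr5:107900468-107900557 (+).
Rpl37a: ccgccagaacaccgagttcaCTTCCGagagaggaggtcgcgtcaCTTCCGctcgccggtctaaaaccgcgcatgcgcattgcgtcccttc
Rps12: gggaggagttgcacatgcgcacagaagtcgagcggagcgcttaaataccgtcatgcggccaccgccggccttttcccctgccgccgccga
Rps27: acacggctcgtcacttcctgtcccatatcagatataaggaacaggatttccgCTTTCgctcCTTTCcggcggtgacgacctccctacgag
Rpl4: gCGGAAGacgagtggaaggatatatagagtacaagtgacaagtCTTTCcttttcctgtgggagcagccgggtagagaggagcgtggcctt
Rpl5: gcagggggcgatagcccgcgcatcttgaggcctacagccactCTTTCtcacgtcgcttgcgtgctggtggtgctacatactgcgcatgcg

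Of the stretches shown, those of Rps27, Rpl4 and Rpl5 hold CTTTC. Among the other genes named above, the same stretch lacked it in Rpl9 and Rps24, with large rises, in Rpl27, with a small difference, and in Rplp0, and 1 of 2 windows of Rpl10a held it. Within 30 bases of the start on the gene's strand, CTTTC was in 32.8% of core windows and in 7.93% of all 32851 RefSeq windows. On both strands of the whole window, CGGAAG was in 62.7% of core windows and 16.9% of all windows, CTTTC in 82.1 and 57.3%, and AAGATGG, the YY1 core, in 16.4 and 6.34%. The composite site for an ETS factor with an IRF, written as GGAA, any 2 bases and GAAA, was in 1.49% of core windows and 2.72% of all. The interferon response element, written as GAAA, any 2 bases and GAAA, was in 10.4 and 3.44%. TATAAA was in 8.96 and 13.6%, and the E-box CACGTG in 11.9 and 7.15%. The letters GAAA of the IRF motifs can overlap a CTTTC on the other strand. A match describes letters in these windows and shows no bound factor. The exact letters CTTTC miss other runs of pyrimidines, such as the one in the Rps12 stretch. The Rpl37a stretch ends at 72711289 and the Rpl27 stretch at 101442274, before the GENCODE gene starts of 72711290 and 101442298. A stretch without CTTTC therefore does not show that the gene lacks a TOP start.

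The 5 tested paralogs and genes only named alike all had smaller differences than the core median. Rps27l, a p53-inducible paralog of Rps27, was at 17.5, 25.3 and 30.3 CPM in WT and 68.4, 69.8 and 92.5 CPM in IRF8KO, with no overlap. It was called higher (log2 fold change 1.65 ± 0.30 SE, edgeR adjusted p = 0.00317), but not after the correction for GC content and exon length (1.00, edgeR adjusted p = 0.129). Rpl36al, an autosomal copy of Rpl36a, was at 28.8, 23.2 and 25.2 CPM against 50.4, 34.8 and 68.2 CPM (0.99 ± 0.31, edgeR adjusted p = 0.0457), a call lost in 12 of 22 alternatives. These included the fits without any one of WT replicates 1 and 2 and IRF8KO replicates 1 and 3 (edgeR adjusted p = 0.0924, 0.167, 0.117 and 0.22), and library size alone (edgeR adjusted p = 0.324).

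Rpl7l1, a gene related to Rpl7 that is known from ribosome assembly, was at 122, 115 and 139 CPM in WT and 122, 107 and 112 CPM in IRF8KO. Its groups overlapped and it was not called (log2 fold change -0.14 ± 0.26 SE, edgeR adjusted p = 0.737). It was called lower with library size alone (-0.64, edgeR adjusted p = 0.0415) and when scaled to the mitochondrial ribosomal protein genes (-0.80, edgeR adjusted p = 0.0185). Rps19bp1, a partner of the Rps19 protein, was at 16.1, 15.6 and 24.1 CPM against 37.7, 23.7 and 34.9 CPM and was not called (0.78 ± 0.34, edgeR adjusted p = 0.123), except without WT replicate 3 (edgeR adjusted p = 0.0222). Rpl22l1 was at 1.95, 2.48 and 0.551 CPM against 1.12, 2.24 and 3.15 CPM, overlapping and not called (0.38 ± 0.81, edgeR adjusted p = 0.777). With the counts of the second strand it was called higher (1.67, edgeR adjusted p = 0.0475).

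Set against its core partner, a paralog or like-named gene had a lower mean ratio of counts in IRF8KO in 4 of 4 pairs, with no overlap of the groups in 3, and 0 of the 4 passed the test. A lower ratio to a core gene is common to most genes, since 74.5% of all genes were called lower in the fit scaled to the class. The ratio of Rpl7l1 to Rpl7 counts was 2.71, 2.19 and 2.07 in WT and 0.502, 0.607 and 0.341 in IRF8KO, so the gene with more counts changed from Rpl7l1 to Rpl7. Rpl36al over Rpl36a was 7.40, 4.74 and 4.36 against 2.33, 1.74 and 1.65. Rps27l over Rps27 was 0.750, 0.957 and 0.898 against 0.443, 0.4997 and 0.382. The groups did not overlap in these 3 pairs, for which the exact two-sided permutation test over the 6 libraries gave p = 0.1, the smallest that 3 against 3 allows, and 0.133 after adjustment over the 4 pairs. Rpl22l1 over Rpl22 was 0.179, 0.208 and 0.0381 against 0.0285, 0.0729 and 0.0639, with overlap (exact permutation p = 0.3, adjusted 0.3). Near-identical sequence can move reads between a pair, since only uniquely mapped reads were counted.

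**Figure D4:**
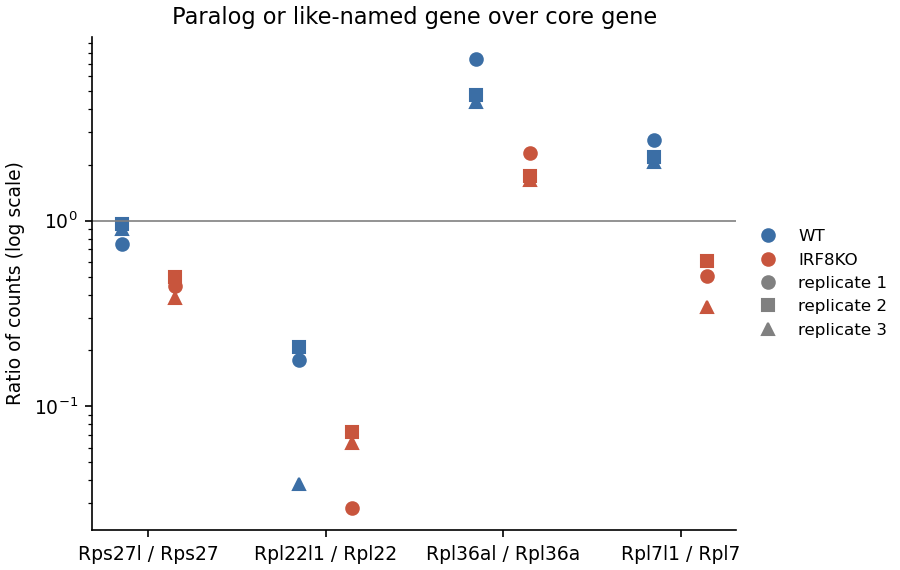
Ratio of the counts of a paralog, or of the like-named Rpl7l1, to those of its core gene (y axis, log scale) in each WT and IRF8KO library, for the 4 pairs in which both genes were tested. The Rpl7l1 to Rpl7 ratio is 2.07 to 2.71 in WT and 0.341 to 0.607 in IRF8KO, and only for Rpl22l1 to Rpl22 do the groups overlap.

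Copies of the class in the genome took few uniquely mapped reads. Reads that fit both a copy and its gene were not counted, and their number was not tested. The 274 genes named as ribosomal protein pseudogenes outside the members, of which 145 had counts, added up to 0.770% ± 0.116 of the member counts in WT and 0.782% ± 0.0525 in IRF8KO (SD, n = 3 each). Among the 6 copies annotated as protein-coding, Rpl10-ps3 was at 1.56, 0.354 and 1.24 CPM against 2.09, 1.35 and 1.19 CPM and was not called (log2 fold change 0.59 ± 0.87 SE, edgeR adjusted p = 0.674). Rpl9-ps6 had 3 counts in all in WT and 94 in IRF8KO. The scaled ratio was 31.2, with an exact 95% interval of 10.4 to 154 for counting error, while Rpl9 itself was 5.88-fold higher. It passed the filter on low counts only through IRF8KO, the group where it is high, so its call adds nothing to the counts above. Of the 10 untested members, 3 had 0 counts in every library.

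Fau and Rack1, ribosomal proteins whose symbols fall outside the rule, were called higher. Fau, the precursor of the small-subunit protein eS30, was at 22.8, 34.2 and 45.1 CPM in WT and 119, 102 and 186 CPM in IRF8KO (log2 fold change 1.99 ± 0.35 SE, edgeR adjusted p = 0.00225). Rack1, a scaffold on the small subunit, was at 100.4, 111 and 197 CPM against 408, 372 and 547 CPM (1.70 ± 0.34, edgeR adjusted p = 0.00489). Neither gene had overlapping groups.

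Some other mRNAs with a TOP start rose. Of 20 tested, 7 were called higher and 0 lower, against 9.64 and 9.46% of all genes, with a median log2 fold change of 0.85 beside -0.11 over all genes. The median was 0.32 beside -0.61 with library size alone, and 0.15 beside -0.77 when scaled to the mitochondrial ribosomal protein genes. At an unadjusted p under 0.05, 11 were higher and 1 was lower, beside 3717 of all 11041 genes in either direction. DESeq2 called 9 higher and 0 lower. The smallest p-values were those of Eif3f, a subunit of initiation factor eIF3, at 20.0, 23.8 and 39.7 CPM against 139, 107 and 147 CPM (2.23 ± 0.33, edgeR adjusted p = 0.000736), and of Eef1g, a subunit of elongation factor eEF1, at 18.9, 18.2 and 32.5 CPM against 94.7, 73.9 and 124 CPM (2.07 ± 0.34, edgeR adjusted p = 0.00139). The other 5 were Eef1a1, Eef1b2, Tpt1, Btf3 and Eif3h. Among the rest, Pabpc1, the poly(A)-binding protein, was at -1.24 ± 0.46 and not called (edgeR adjusted p = 0.0809).

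Few genes that make ribosomes were called higher with all libraries, and the calls in both directions depended on the fit. Of 36 ribosome assembly genes, 1 was called higher, Nop10 (log2 fold change 2.13 ± 0.31 SE, edgeR adjusted p = 0.000774), and 3 lower, against 9.64 and 9.46% of all genes. DESeq2 called 1 higher and 7 lower, against 12.1 and 12.3% of all genes. At an unadjusted p under 0.05, 2 were higher and 14 lower, beside 3717 of all 11041 genes in either direction. Those lower by edgeR were Fbl, the methyltransferase fibrillarin, Nop56, its partner in box C/D particles, and Wdr75. Fbl was at 19.1, 24.7 and 22.1 CPM in WT and 7.38, 3.50 and 4.88 CPM in IRF8KO (-2.07 ± 0.42, edgeR adjusted p = 0.00557). The median of the list was -0.69. Its lower calls by edgeR numbered 6 with the replicate number as a block, 1 without WT replicate 2 or IRF8KO replicate 1, 2 without WT replicate 1 or IRF8KO replicate 3, 5 without IRF8KO replicate 2 and 10 without WT replicate 3, and 9 with library size alone. They numbered 14 when scaled to the mitochondrial ribosomal protein genes. Its higher calls numbered 4 without WT replicate 3 and 1 in each other fit just given. Of 12 genes of RNA polymerase I transcription, Polr1d was called higher (1.22 ± 0.29, edgeR adjusted p = 0.0133) and Taf1b lower (-2.64 ± 0.82, edgeR adjusted p = 0.0421), with a median of -0.39. DESeq2 called 1 higher and 2 lower. At an unadjusted p under 0.05, 2 of the 12 were higher and 2 lower, beside the same 3717 of 11041 genes. Without WT replicate 3, edgeR called 3 higher and 2 lower, and 0 and 5 when scaled to the mitochondrial ribosomal protein genes. The Taf1b call was lost in 8 of 21 alternatives, among them the fits without any one of WT replicates 1 and 2 and IRF8KO replicates 1 and 3 (edgeR adjusted p = 0.078, 0.217, 0.126 and 0.145). The Polr1d call was lost in 4 of 22, among them those without WT replicate 2 or IRF8KO replicate 3 (edgeR adjusted p = 0.0736 and 0.0882).

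Of 25 other initiation factors, 1 was called higher, Eif3i (log2 fold change 1.29 ± 0.30 SE, edgeR adjusted p = 0.012), and 2 lower, Eif4e, the cap-binding protein, and Eif4g2 (-1.63 ± 0.51, edgeR adjusted p = 0.0439), against 9.64 and 9.46% of all genes. The Eif4g2 call was lost in 8 of 22 alternatives, among them the fits without any one of WT replicates 1 and 2 and IRF8KO replicates 1 and 3 (edgeR adjusted p = 0.114, 0.106, 0.175 and 0.206), and in each of these 0 factors were called lower, beside 7 higher and 7 lower without WT replicate 3. The Eif3i call was lost without WT replicate 1 or 2 or IRF8KO replicate 3 (edgeR adjusted p = 0.057, 0.0668 and 0.0754). The median of the 25 was -0.49, which moved to 0.00 with the correction on coding transcripts. Of 16 genes that control TOP mRNAs or the class, Eif4ebp1, the translation repressor, was called higher and 3 were called lower, against 9.64 and 9.46% of all genes. Without WT replicate 3, 2 were higher and 5 lower. Rptor, the mTORC1 subunit Raptor, was at 252, 322 and 389.8 CPM against 135, 95.1 and 67.6 CPM (-1.70 ± 0.33, edgeR adjusted p = 0.00417). Myc was at 46.3, 60.6 and 27.6 CPM against 5.14, 7.45 and 9.44 CPM (-2.60 ± 0.39, edgeR adjusted p = 0.000915). The groups did not overlap in either gene, and Rps6kb1, the S6 kinase, was the remaining lower call.

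The mitochondrial ribosomal proteins, a separate family that serves the organelle's own ribosome, had a smaller median. Of 77 tested, 15 were called higher and 0 lower, against 9.64 and 9.46% of all genes, and DESeq2 called 18 higher and 0 lower. At an unadjusted p under 0.05, 34 were higher and 1 lower, beside 3717 of all 11041 genes in either direction. The higher calls numbered 3 without WT replicate 1, WT replicate 2 or IRF8KO replicate 1, 2 without IRF8KO replicate 3 and 34 without WT replicate 3. The family's median log2 fold change was 0.57, which was 0.09 with library size alone and -0.10 when scaled to their own sum. Mrpl52 had the smallest p (1.54 ± 0.30 SE, edgeR adjusted p = 0.00401), followed by Mrpl51 (1.49 ± 0.30, edgeR adjusted p = 0.00552). The largest value of the family was 1.56, below the cytosolic core median of 2.17. The median coding transcript was 714 bases long in the cytosolic core, 1056 in the mitochondrial family and 2123.5 over all genes, and over all genes log2 fold change fell with length (Spearman rho -0.227, as a description across genes, which are not independent). With the correction for GC content and exon length, the core median was 1.69 and 71 members were called higher. The mitochondrial median was then 0.32 with 10 called higher, and the Mrpl52 call was lost (0.55, edgeR adjusted p = 0.0993), as it was with the correction on coding transcripts (0.71, edgeR adjusted p = 0.0621).

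Over these 7 lists together, with 189 genes tested, edgeR gave 28 higher and 9 lower calls, against 9.64 and 9.46% of all genes. These counts moved with single libraries, as did the shares of all genes in the same fits. They were 14 and 4 without WT replicate 1, 12 and 3 without WT replicate 2, 62 and 26 without WT replicate 3, 15 and 3 without IRF8KO replicate 1, and 11 and 4 without IRF8KO replicate 3. Of all genes, 18.1% were called higher and 15.4% lower without WT replicate 3, and 4.58 to 5.76% higher and 3.37 to 5.59% lower in the other 4 of these fits.

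**Figure D5:**
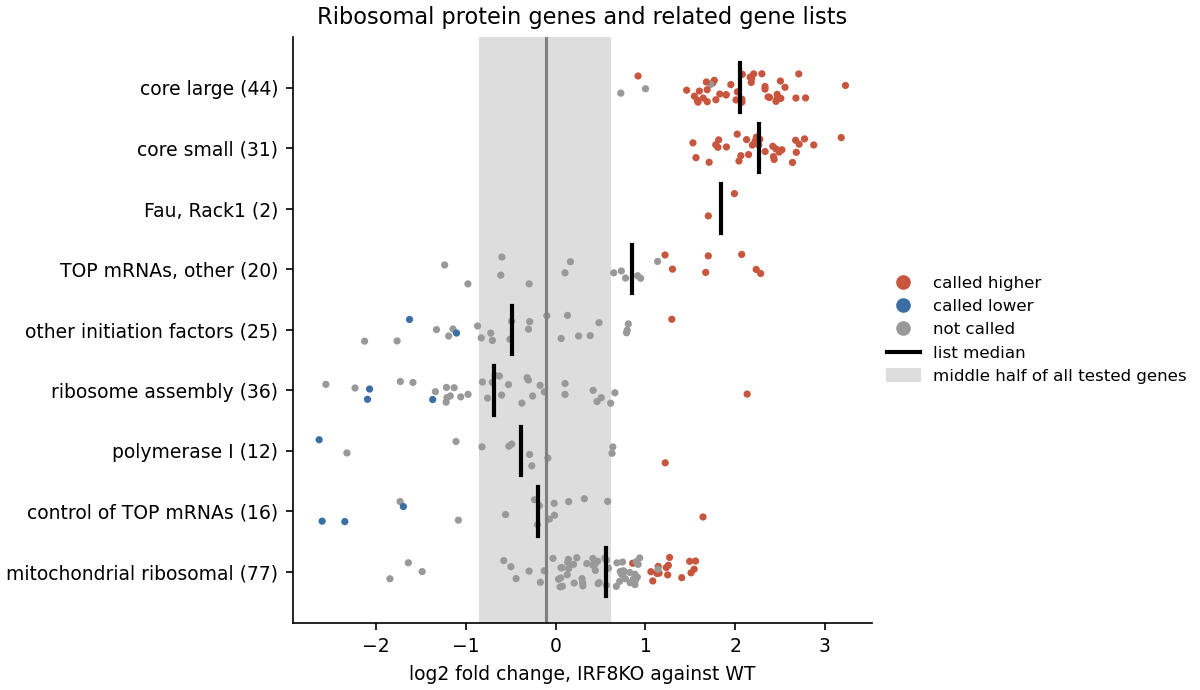
Log2 fold change of IRF8KO against WT (x axis) for the tested genes of each list, with the number tested in parentheses. Red and blue points were called higher and lower, grey points were not called, black bars are list medians, and the grey band spans the quartiles of all genes tested around their median of -0.11. The cytosolic core lies to the right, with medians of 2.05 and 2.26, and the assembly list to the left at -0.69.

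The class also varied together within each genotype. Core levels in IRF8KO replicate 3 were above the mean of the other 2 IRF8KO libraries in 75 of 75 genes, by a median of 0.72 log2 units, and in IRF8KO replicate 2 in 0 of 75, with a median of -0.52. In WT, replicate 3 was above the other 2 in 65 of 75 genes, by a median of 0.56, and replicate 1 in 7 of 75, with a median of -0.46. WT replicate 3 also stood apart from WT replicates 1 and 2 in reads outside genes (2.44% of uniquely mapped reads against 7.70 and 7.52%), in reads that fit several genes (10.8% against 8.33 and 8.20%) and in its TMM factor (0.917 against 1.41 and 1.30), and their part in this shift was not tested. Over all genes the same differences had medians between -0.09 and 0.07. As a share of the whole library, by contrast, the 3 WT shares lay within 0.337 to 0.382%. The lowest IRF8KO share was that of replicate 1, not replicate 2, at 0.783 against 0.980%, or 1.18 against 1.31% without Apoe. Their TMM factors were 0.694 and 1.03, so which IRF8KO library is lowest depends on the scaling. The spread within a genotype remained smaller than the gap between genotypes for the core sum, whose lowest IRF8KO value was 2.36 times the highest WT value.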

How the data were processed

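Full-length cDNA libraries of sorted microglia were sequenced from 3 WT and 3 IRF8KO male mice. The submitters' processing notes name STAR 2.5.2b, Picard 2.17.11, Subread, featureCounts and build mm10. The deposited files hold counts of uniquely mapped reads per gene, unnormalized, in STAR's layout per the file headers. Unstranded counts in column 2 were used, without the 4 summary lines. The annotation release behind the files is not given in the sources used here. Symbols, classes and coordinates came from GENCODE M21, which matched 49326 of 49585 genes. The members and lists were chosen with earlier results of these data known.

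Genes passing edgeR's filterByExpr (minimum count 10) entered edgeR 4.0.16 under R 4.3.3 (TMM, quasi-likelihood test, Benjamini-Hochberg over all 11041 genes, called at an adjusted p under 0.05). CPM used TMM-scaled library sizes, and per kilobase values the merged exon length. The fit against the class used summed core counts as library size. The shares and the subunit ratio are given without a p, since they are sums over chosen members. The fits were run on simulated data in which genes outside the core changed evenly in both directions. That setting has no joint shift of the class and no rise like that of Apoe, so it does not test the fits under these conditions.

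Genes named with values were the 5 highest per kilobase, the 6 smallest p, the 4 highest and 4 lowest core fold changes, the stalk genes, the 3 smallest p each way against the class, all tested paralogs, Fau and Rack1, and the 2 smallest p per list. Some genes that these choices take are not reported here. Other called genes of the lists, Rpl13a, Rpl23a, Rpl24, Pabpc1 and the members that lost a call were named after their values were seen. Each library came from its own brain per the labels, and p-values measure the spread between these libraries. Each replicate pair differed beyond counting noise, by a chi-square per degree of freedom of 9.02 for WT replicates 1 and 2 and of 24.9 to 89.9 for the other pairs. Alternatives covered scaling, filter, tool (DESeq2 1.42.0, limma 3.58.1), strand, GC and length, pseudogene counts and leaving out each library.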

Additional observations from a re-analysis of the deposited data

How the results depend on the processing

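Among single named genes, 0 calls reversed, and values stayed on their side of the threshold in 828 comparisons, losing a call in 54 and gaining one in 14. With library size alone, 1 member was called lower, the core median was 1.69, and the related lists had 16 genes higher and 16 lower. The related lists had 14 lower without a filter on low counts and 15 lower with DESeq2. The core median was 1.69 with the correction for GC content and exon length. Chosen after seeing the data were the correction on coding transcripts (core median 1.64), scaling to mitochondrial ribosomal protein genes (1 member lower, core median 1.50, related lists 13 higher and 32 lower, against 28 and 9, and a mitochondrial median of -0.10 against 0.57) and members without exonic overlap (42 higher). Leaving out each library in turn gave 65 to 78 members higher, core medians of 1.89 to 2.39, related lists with 11 to 62 higher and 3 to 26 lower, and 1 to 3 members higher and 3 to 7 lower against the class. The Rpl22l1 to Rpl22 log2 ratio difference, -1.14 with all libraries, ran from -0.69 without WT replicate 2 to -1.92 without WT replicate 3.

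With the replicate number as a block, 74 members were called higher and 0 lower, with a core median of 2.16. WT and IRF8KO libraries of the same number shared only the number: their deviations from the group means correlated at -0.29, 0.35 and 0.13 for numbers 1, 2 and 3, and WT replicates 1 and 3 correlated best with another number. Depth limits WT replicate 1 most, which had 3658917 counts against 7919755 or more in the others.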
